A study of Rattus norvegicus with 6 samples.

Results

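The genes of fatty acid and triglyceride synthesis were followed in rat pancreas: the enzymes Acly, Me1, Acaca, Fasn, Elovl6, Scd, Scd2, Agpat2 and Dgat2, and the lipogenic regulator Thrsp. A non-control probe was taken for a gene when its RefSeq accession, without the version, belonged to that symbol in a table of current rat genes. By this rule 9 of the 10 genes had a probe, 10 probes in all, among 13897 genes with a matched probe on the array. Fasn was not matched and is not analysed here. The set was proposed with the difference between the groups of this study in view. Its values are therefore given as a description, without p-values. Those of the other genes of the pathway are set beside the share of all genes that passed the same test.

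The study compared pancreas of control rats with pancreas of rats with acute pancreatitis (AP), and put long noncoding RNAs and messenger RNAs on 1-colour Agilent arrays. The labels give male rats of 6 weeks in both groups, with no strain, genotype or transgene. AP was induced with sodium taurocholate, a bile salt, run backwards into the pancreatic duct as a 4% solution at 1 mL/kg, and the gland was taken after 9 h. The labels do not say whether control rats had a sham operation; all rats had free access to food and water.

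Fat is made from sugar in the cytosol. Citrate leaves the mitochondrion and is cut to acetyl-CoA by Acly, acetyl-CoA carboxylase (Acaca) makes malonyl-CoA, and fatty acid synthase builds palmitate with NADPH that comes in part from malic enzyme (Me1). Elovl6 lengthens palmitate, the stearoyl-CoA desaturases Scd and Scd2 put in the first double bond, and acyltransferases, among them Agpat2 and at the last step Dgat2, load fatty acids onto glycerol. The pathway is strongest in liver and adipose tissue, and the bulk of the exocrine pancreas consists of acinar cells that make digestive enzymes.

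The 6 deposited scans came from 4 arrays on 1 slide. Control 3 repeated the array of control 2, and AP 3 that of AP 2: deviations of spots from their probe's mean correlated at 0.990 in both pairs and at 0.218 to 0.721 in the other 13 pairs, over 1614 spots. Repeated scans were averaged, so n is 2 arrays per group, and p-values measure the spread between these arrays. The 75th percentile of the signal was 140 to 147 on control scans and 70.1 to 77.7 on AP scans, and 13039 to 15388 probes stood well above background on control scans against 10905 to 11367 on AP scans. Values are log2 signals relative to that percentile; this scaling took out a shift of -0.96 between AP and control arrays. All 15 matched acinar markers were tested and were well above background on all 6 scans. Their summed level, relative to the 75th percentile, was 87.2 to 89.0 on control scans, below the 470 to 476 of the matched adipocyte markers. On AP scans it was 102 to 116, above the 24.6 to 27.6 of those markers. The 8 genes chosen to check the labels, which are known to be induced by tissue injury, were all lower on the arrays labelled AP. The chemokine Ccl2 was 57.8-fold lower (log2 fold change -5.85 ± 0.09, SE; adjusted p = 0.000602), and the summed level of these genes, relative to the 75th percentile, was 397 to 406 on control scans and 9.97 to 10.98 on AP scans. Every direction below therefore runs from the arrays labelled control to the arrays labelled AP. Whether the group names were exchanged was not tested; if they were, every fold below would turn, so lower on AP arrays is not to be read as lower in pancreatitis.

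Promoter sequence of 3 of these genes is shown because they lie at the 2 ends of the range: Thrsp and Me1 were among the genes with the largest falls, and Scd2 was higher. Each run is the 250 bases before the annotated start, from RefSeq on the build GRCr8, 5′ to 3′ on the strand of the gene, at chr1:161138965-161139214 on the minus strand for Thrsp, chr8:96540245-96540494 on the minus strand for Me1 and chr1:253118127-253118376 on the plus strand for Scd2. Capitals mark matches, on either strand, to CCAAT (read ATTGG on the other strand), the box bound by NF-Y, and GGGCGG (read CCGCCC), the box bound by Sp1, both factors that work beside SREBP at lipogenic promoters.
Thrsp: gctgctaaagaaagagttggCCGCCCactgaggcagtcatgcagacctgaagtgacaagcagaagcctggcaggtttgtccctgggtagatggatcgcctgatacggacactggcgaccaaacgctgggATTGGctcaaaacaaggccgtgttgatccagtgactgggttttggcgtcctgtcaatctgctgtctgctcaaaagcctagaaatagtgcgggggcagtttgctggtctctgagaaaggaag
Me1: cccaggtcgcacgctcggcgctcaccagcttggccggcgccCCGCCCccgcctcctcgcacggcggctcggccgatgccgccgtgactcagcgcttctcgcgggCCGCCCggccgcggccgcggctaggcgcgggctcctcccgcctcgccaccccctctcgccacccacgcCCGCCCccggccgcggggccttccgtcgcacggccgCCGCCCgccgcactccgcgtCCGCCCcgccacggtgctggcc
Scd2: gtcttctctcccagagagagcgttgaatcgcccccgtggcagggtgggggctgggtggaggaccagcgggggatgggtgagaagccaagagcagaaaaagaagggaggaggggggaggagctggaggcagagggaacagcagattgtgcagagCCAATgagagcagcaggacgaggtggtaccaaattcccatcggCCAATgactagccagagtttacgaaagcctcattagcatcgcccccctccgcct
The Thrsp window held 1 CCAAT box, 121 to 117 bases before the start, and 1 GGGCGG box. The Scd2 window held 2 CCAAT boxes, 97 to 93 and 54 to 50 bases before the start, and no GGGCGG box. The Me1 window was 83.2% G and C and held 5 GGGCGG boxes and no CCAAT box. Entries were found for 6 of the 10 genes, and the windows of the other 3, which overlap the listed gene, are not printed. Of these, Acly held 1 CCAAT and 3 GGGCGG boxes, Agpat2 held 6 GGGCGG boxes, of which a pair shares a base, and Scd held neither. None of the 6 windows held CACGTG, the E-box, or TCACNCCAC, a sterol response element. Of all 33469 promoter windows of this length, 34.0% held CCAAT, 30.5% GGGCGG, 5.59% CACGTG and 0.974% TCACNCCAC. These matches describe letters only, and binding was not measured.

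Acly and Me1, which supply acetyl-CoA and NADPH, were high on control arrays and low on AP arrays. The log2 relative signal of Acly was 6.27, 6.36 and 6.33 on control scans 1, 2 and 3 and 2.07, 1.98 and 2.02 on AP scans 1, 2 and 3. The groups did not overlap, and the array means were 6.31 ± 0.05 for control and 2.03 ± 0.04 for AP (SD, n = 2), a log2 fold change of -4.27 ± 0.10 (SE) or 19.3-fold lower. A second Acly probe gave -4.20. Me1 read 3.78, 3.95 and 3.96 on control scans, which are raw signals of 2020, 2175 and 2271, and -3.92, -2.85 and -2.64 on AP scans. No AP scan had its probe well above background, and it passed the filter on dim probes through the control scans alone. The dimmest probes that did stand above background on AP arrays read -2.50 on the log2 scale, and against that level Me1 was 82.8-fold lower. That level is no strict limit: Idh1, for example, averaged -1.94 on AP arrays but was above background on no AP scan. With the normexp background correction the log2 fold change of Me1 was -3.52. Folds given below as at least a value are meant against that level only.

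Of the genes of fatty acid synthesis itself, Acaca was dim and Thrsp was bright. Acaca, the enzyme that commits acetyl-CoA to fatty acids, read -1.43, -2.17 and -2.39 on control scans and -2.20, -1.85 and -2.14 on AP scans, raw signals of 27.9 to 54.6 and 16.8 to 19.4. Its groups overlapped, with array means of -1.85 ± 0.60 and -2.10 ± 0.15 (SD, n = 2) and a log2 fold change of -0.24 ± 0.33 (SE), which was not past the threshold. The probe was well above background on all 3 control scans and on 1 AP scan, so a change in Acaca of the size seen in Acly could not have been measured on it in full. Thrsp, also called Spot 14, is a small protein of lipogenic tissues that responds to thyroid hormone and carbohydrate and promotes fatty acid synthesis. It read 7.43 and 7.32 on control scans 1 and 2, raw signals of 25308 and 22422, and 1.07, 1.36 and 1.43 on AP scans. Its spot on control scan 3 carried an outlier mark and was left out. The groups did not overlap, with means of 7.37 ± 0.08 and 1.23 ± 0.23 (SD, n = 2), a log2 fold change of -6.14 ± 0.15 (SE) or 70.7-fold lower.

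In elongation and desaturation, the desaturases Scd and Scd2 went opposite ways. Elovl6 read 3.27, 3.34 and 3.35 on control scans and -2.25, -1.38 and -1.60 on AP scans, without overlap. Its means were 3.31 ± 0.06 and -1.87 ± 0.54 (SD, n = 2), a log2 fold change of -5.18 ± 0.29 (SE) or 36.2-fold lower, and on the AP side it was well above background on only 1 of the 3 scans. Scd, whose product is oleate from stearate, had the smallest spread between arrays in the set. It read 8.56, 8.60 and 8.58 on control scans, raw signals of 55701, 54404 and 55803, and 2.20, 2.21 and 2.22 on AP scans, raw signals of 357, 323 and 343. No spot on any scan was marked as saturated. The means were 8.58 ± 0.02 and 2.21 ± 0.01 (SD, n = 2), a log2 fold change of -6.37 ± 0.09 (SE) or 82.7-fold lower; of the 8722 genes tested, 12, with Scd among them, fell at least as far.

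Scd2, a second desaturase with the same reaction and a wider tissue range, was the 1 gene of the set that was higher on AP arrays. It read 1.32, 1.85 and 1.96 on control scans, raw signals of 367, 505 and 568, and 3.50, 3.46 and 3.46 on AP scans, raw signals of 882, 773 and 813. All AP scans lay above all control scans on both scales, and the control arrays differed more than the AP arrays did. The means were 1.61 ± 0.41 and 3.48 ± 0.03 (SD, n = 2), a log2 fold change of 1.87 ± 0.23 (SE) or 3.66-fold higher, and 348 of the 8722 genes, with Scd2 among them, rose as far or further. Its log2 fold change lay 8.24 above that of Scd. The genes are neighbours on chromosome 1, with Scd4 as the 1 gene listed between them, and are close relatives in sequence. Probe sequences were not used here, so hybridisation of one transcript to the probe of the other was not tested.

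In triglyceride assembly, Dgat2 was far lower on AP arrays and Agpat2 was not separated. Dgat2, which adds the last fatty acid to diacylglycerol, read 5.80, 5.85 and 5.86 on control scans and 0.61, 0.67 and 0.66 on AP scans. The means were 5.83 ± 0.04 and 0.64 ± 0.04 (SD, n = 2), a log2 fold change of -5.19 ± 0.09 (SE) or 36.6-fold lower, with no overlap. Agpat2 makes phosphatidic acid, and its loss is known to cause lipodystrophy. It read -0.77, -1.03 and -0.99 on control scans and -1.69, -0.84 and -0.83 on AP scans. The second AP array lay within the control range and the first below it, so the groups overlapped, with means of -0.89 ± 0.17 and -1.26 ± 0.61 (SD, n = 2) and a log2 fold change of -0.37 ± 0.34 (SE).

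**Figure D1:**
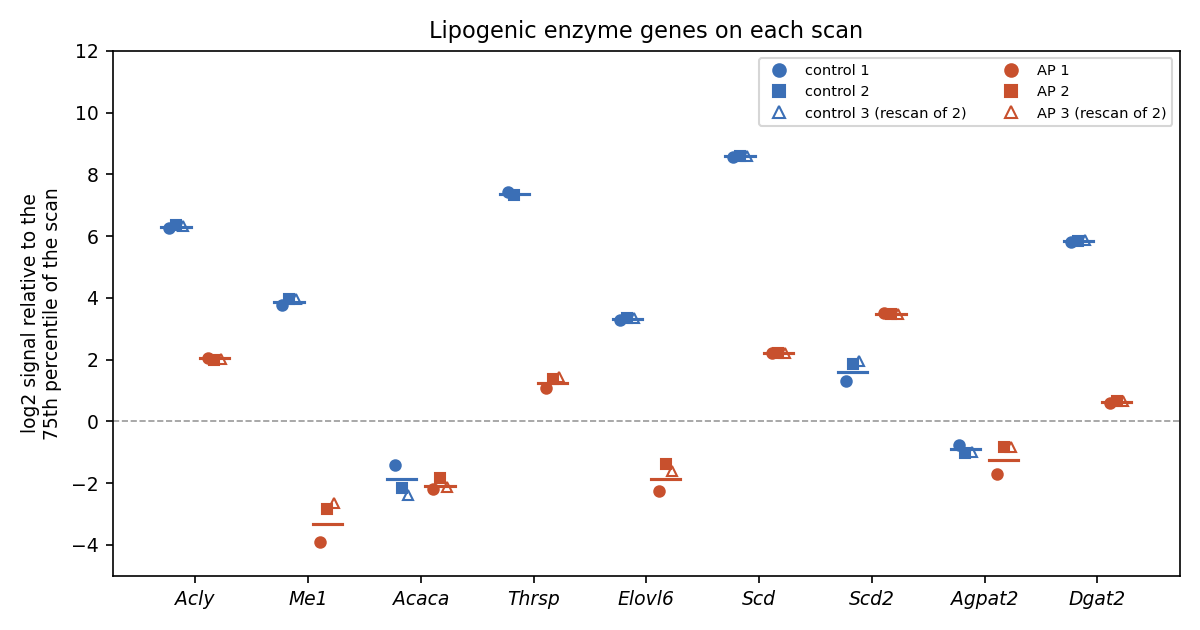
Log2 signal of each gene relative to the 75th percentile of the scan (vertical axis), 1 probe a gene, for the 3 control scans (blue) and the 3 AP scans (red). Open triangles are the repeated scans of array 2 and short lines are means over the 2 arrays of a group; Acly, Me1, Thrsp, Elovl6, Scd and Dgat2 lie lower on AP scans, Scd2 higher, and Acaca and Agpat2 overlap.

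Of the 9 genes measured, 6 were called lower, 1 was called higher and 2 were not past the threshold. Among all 8722 genes tested, 31.9% were called lower and 24.1% higher, 56.0% in all. Over all 13213 probes the shares were 28.2% lower and 26.9% higher, 55.1% in all. The set was chosen on this contrast, so nothing is read from its count. The groups did not overlap in 7 of the 9 genes, as in 79.9% of all genes tested. The median log2 fold change of the 9 genes was -5.18, beside -0.03 over all genes tested. The 6 lower genes fell by 4.27 (Acly) to 7.20 (Me1, fitted value) on the log2 scale. The gene just inside the threshold on the side of small changes was Scd2, at 1.87, and those just outside were Agpat2, at -0.37, and Acaca, at -0.24.

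**Figure D2:**
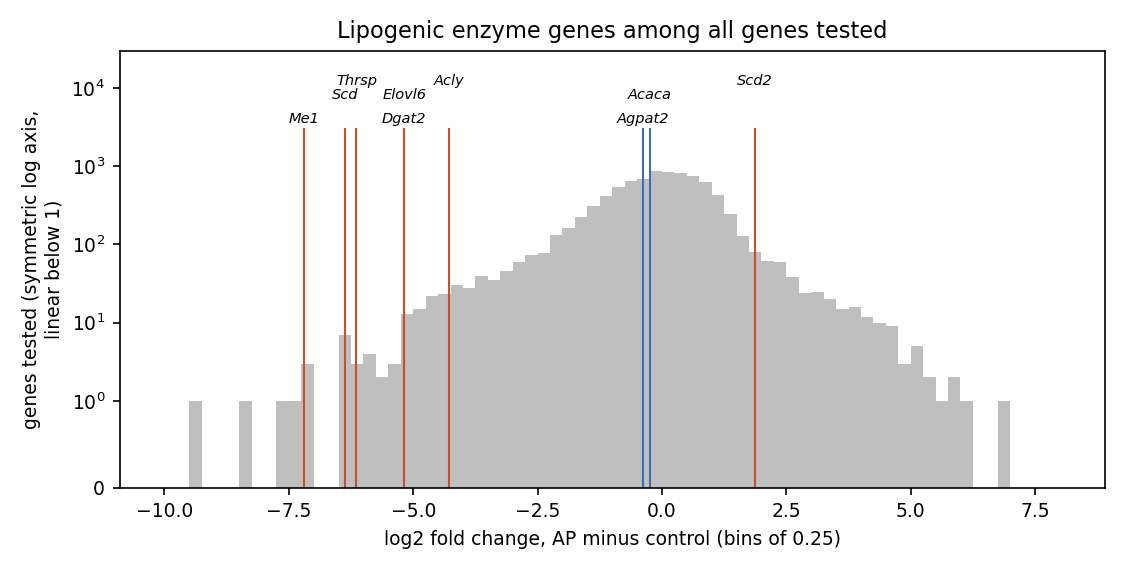
Number of genes (vertical axis, symmetric log scale) by log2 fold change, AP minus control (horizontal axis, bins of 0.25), for the 8722 genes tested, 1 probe a gene. Vertical lines mark the genes of the set, red where past the threshold and blue where not: 6 stand in the lower tail at -4.27 and below, Acaca and Agpat2 near the middle and Scd2 at 1.87.

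The 6 lower genes stayed below 0 under every alternative in which they had a value. Acly ranged from -5.23 to -4.23 over the alternatives, Scd from -7.33 to -6.36, Thrsp from -7.09 to -5.98 and Dgat2 from -6.15 to -4.75. Me1 and Elovl6, which were at or near background on AP arrays, fell least with the normexp background correction, at -3.52 and -2.83. That setting also adds an offset of 50 to every spot, and an added constant makes the folds of dim probes smaller. Raw AP signals were 5.12 to 11.8 for Me1 and 16.4 to 26.9 for Elovl6. The share of the offset in the smaller falls was not tested. Scd2 stayed above 0 under all 19 alternatives, from 0.92 without scaling to 2.17 without the second control array, and its lowest value when an array or scan was left out was 1.58. Acaca took values from -1.20 to 0.19 and Agpat2 from -1.33 to 0.06, on both sides of 0. Repeated scans of an array differed by at most 0.29 in these genes, and the second scan session alone, 1 scan per group, gave 0.25 for Acaca and 0.16 for Agpat2.

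**Figure D3:**
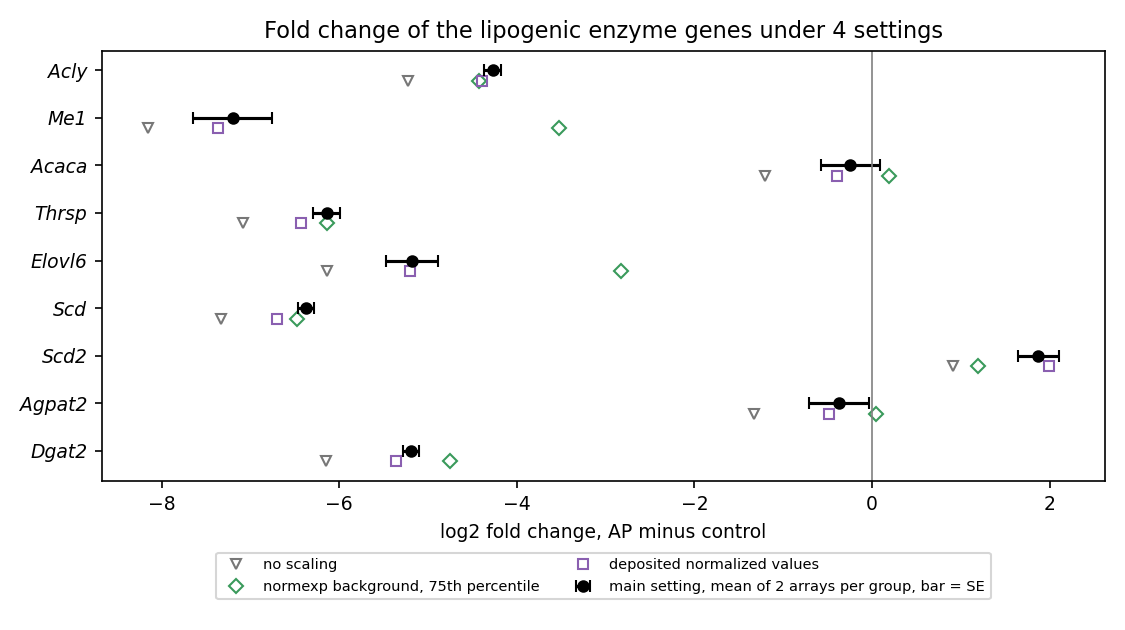
Log2 fold change of each gene, AP minus control (horizontal axis): black points are the fit on 2 arrays per group with bars of 1 SE, and open symbols are the values without scaling, with normexp background correction and from the deposited normalized table. Me1 and Elovl6 move most with normexp, to -3.52 and -2.83, while Scd2 stays above 0 and Acaca and Agpat2 fall on both sides of it.

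The rest of the pathway was followed with 5 lists of genes set by function: citrate and NADPH supply, fatty acid synthesis and modification, triglyceride assembly, regulators and lipolysis. The lists were chosen with earlier results of these data known, so their counts are a description and no independent test. Of 81 genes listed, 70 had a probe and 50 were tested; 34 fell, 5 rose and 11 were not past the threshold, where 31.9% of all genes fell and 24.1% rose; each list's counts below stand beside these shares. Their median log2 fold change was -1.23, or -0.97 with genes at background set to their bound, beside -0.03 over all genes. Of the genes that fell, 6 were at background on all AP scans, so they passed the filter on dim probes through the control scans alone. Without scaling, 42 fell and 0 rose: the genes gained were Idh1, Acsl3, Gk, Lpin1, Abhd5, Srebf2, Mlx and Nr1h2.

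Transcripts of citrate and NADPH supply genes were low as a group on AP arrays, with 7 of 8 tested genes lower, 0 higher and a median of -2.15. Pyruvate carboxylase (Pc), which feeds oxaloacetate to the mitochondrial citrate pool, was 12.5-fold lower (-3.64 ± 0.13, adjusted p = 0.000729). Cytosolic malate dehydrogenase (Mdh1) was 6.36-fold lower, the citrate carrier Slc25a1 was 5.84-fold lower (adjusted p = 0.000759) and cytosolic aconitase (Aco1) was 5.27-fold lower. Acss2, which makes acetyl-CoA from acetate, was 3.06-fold lower (adjusted p = 0.00470). The gene not past the threshold was Idh1, at background on AP arrays, which read -0.47 (adjusted p = 0.343) and passed it without the second control array, at -0.95 (adjusted p = 0.0327).

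Among the enzymes that make, lengthen and activate fatty acids, 10 of 13 tested genes fell, 1 rose and 2 were not past the threshold, with a median of -2.13 (-1.88 with bounds). Of the enzymes that act after Elovl6 in the elongation cycle, the ketoacyl-CoA reductase Hsd17b12 was 13.9-fold lower (-3.80 ± 0.10, adjusted p = 0.000625). The dehydratase Hacd1 was at least 12.1-fold lower by its bound, and its fitted change was -4.95 (adjusted p = 0.000625). The related Hacd3 fell by 0.43 (adjusted p = 0.0337) and Hacd4 rose by 0.64 (adjusted p = 0.0200). The delta-5 desaturase Fads1 was 4.38-fold lower. Acsl1, which activates fatty acids to acyl-CoA, was 13.5-fold lower, and the chain-releasing thioesterase Olah at least 3.06-fold lower, though Olah read -0.13 with the normexp correction and was then not past the threshold (adjusted p = 0.725). Elovl1 read 1.03 ± 0.48 (adjusted p = 0.151), past the threshold without the second AP array at 1.62 (adjusted p = 0.0448), and Acsl3, at background on AP arrays, -0.49 ± 0.32 (adjusted p = 0.263), past it without the first AP array at -0.89 (adjusted p = 0.0476). On no scan were Acacb, Elovl5 and Fads2 well above background, and they were not tested.

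In triglyceride assembly 8 of 12 tested genes fell, 1 rose and 3 were not past the threshold, with a median of -0.91 (-0.88 with bounds). Gpd1, which makes the glycerol 3-phosphate backbone, was 22.6-fold lower (-4.50 ± 0.10, adjusted p = 0.000602). Dgat1, which catalyses the same last step as Dgat2, was 11.7-fold lower (-3.54 ± 0.10, adjusted p = 0.000666). Agpat4, a relative of Agpat2, fell by 2.81 on the log2 scale, and Gpat3 was at least 1.98-fold lower, a value that became 0.035 with the normexp correction. Gk read -0.28 ± 0.14 (adjusted p = 0.167), Lpin1, at background on AP arrays, -0.16 ± 0.23 (adjusted p = 0.596) and Lpin2 0.39 ± 0.42 (adjusted p = 0.473), which passed the threshold without the first AP array, at 0.94 (adjusted p = 0.0417). Gpam was at background on all scans.

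The transcription factors and sensors of lipogenesis were mixed: of 12 tested, 5 fell, 3 rose and 4 were not past the threshold, and the median was 0.07. These counts lie near the shares of all genes, 31.9% lower and 24.1% higher. Pparg, the master regulator of fat cells, was 22.3-fold lower (-4.48 ± 0.27, adjusted p = 0.00162), and its 3 probes gave -4.85 to -4.48. The liver X receptor Nr1h3, which induces SREBP-1c, was 1.94-fold lower (-0.96 ± 0.15, adjusted p = 0.0107), but not past the threshold without the second control array (adjusted p = 0.0562) or with normexp (adjusted p = 0.140). The AMP-activated kinase subunit Prkaa1 was at least 1.11-fold lower (adjusted p = 0.0228), and was not past the threshold without either control array (adjusted p = 0.0984 and 0.103). Thra, a receptor for thyroid hormone, to which Thrsp responds, was 1.80-fold higher (0.85 ± 0.12, adjusted p = 0.00812). Values not past the threshold were Srebf2 at 0.09 (adjusted p = 0.465), Mlx at 0.05 (adjusted p = 0.813), Rxra at 0.13 (adjusted p = 0.829), which passed it without the first control array at 0.73 (adjusted p = 0.0470), and Thrb at 0.42 (adjusted p = 0.205). Without scaling Srebf2 and Mlx turned to -0.86 (adjusted p = 0.00367) and -0.91 (adjusted p = 0.0141) and were called lower. Leaving out arrays or scans gave 2 to 5 lower and 1 to 3 higher. Srebf1, Mlxipl and Insig1 were not matched and are not analysed here.

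Besides Thra, the genes of the 5 lists that rose were Hacd4 (0.64 ± 0.13), Mbtps1 (0.59 ± 0.16), Fitm1 (0.57 ± 0.16) and Nr1h2 (0.52 ± 0.13), named after their values were seen. All 5 changes were smaller than the scaling shift of 0.96 and lay below 0 without scaling, from -0.44 for Nr1h2 to -0.11 for Thra. Without the first AP array 2 of the lists' genes rose, without the second AP array also 2, and without the second control array 1. Scd2, at 1.87, exceeded that shift.

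Most genes of triglyceride breakdown and its control, lipases and an inhibitor alike, were lower on AP arrays as well. In lipolysis 4 of 5 genes were lower and 0 higher, with a median of -3.62 (-3.55 with bounds). Monoglyceride lipase (Mgll) was at least 6.79-fold lower, hormone-sensitive lipase (Lipe) 13.1-fold lower (-3.72 ± 0.18, adjusted p = 0.00108), adipose triglyceride lipase (Pnpla2) 11.7-fold lower and its inhibitor G0s2 12.3-fold lower. With normexp Mgll read -0.70 and was not past the threshold (adjusted p = 0.0566). Abhd5, the activator of Pnpla2, read -1.44 ± 0.58 (adjusted p = 0.112) and was at background on AP arrays. Abhd5 passed the threshold without the first AP array, at -0.66 (adjusted p = 0.0488), and without the second, at -2.22 (adjusted p = 0.0134).

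Markers of fat cells moved with the lipogenic genes. Of 17 adipocyte markers, 14 had a probe and 13 were tested: 10 fell, 1 (Pck1, also a gluconeogenic enzyme of other tissues) rose by 1.04 and 2 were not past the threshold, with a median of -3.95. Adiponectin (Adipoq) read 5.85, 5.87 and 5.84 on control scans and 0.91, 0.93 and 0.94 on AP scans, 30.4-fold lower (-4.93 ± 0.09, adjusted p = 0.000602). Fabp4 was 37.3-fold lower and Cfd, adipsin, 17.4-fold lower. Of the 10 markers that fell, 3 were at background on all AP scans and passed the filter on dim probes through the control scans alone. The summed level of the matched markers was 470 to 476 times the 75th percentile on control scans and 24.6 to 27.6 times on AP scans. Lep, leptin, read 0.06 ± 0.26 (adjusted p = 0.857), and without scaling -0.90, called lower (adjusted p = 0.0360). Lpl read -2.93 ± 0.93 (adjusted p = 0.0659), and passed the threshold without the first AP array, at -4.20 (adjusted p = 0.0107), and without the second, at -1.67 (adjusted p = 0.0153). Plin1 was not matched and is not analysed here.

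Markers of red blood cells and fibroblasts and the endothelial marker tested were also lower, and those of other cell types were mixed or higher. All 4 erythroid markers fell, Hbb 24.8-fold, Hba-a2 26.4-fold, Alas2 9.34-fold and Slc4a1 at least 2.02-fold, with a median of -3.93 and a summed level of 633 to 735 on control scans and 27.8 to 28.5 on AP scans. Of 6 fibroblast markers tested, 5 fell (Col1a2, Col3a1, Dcn, Pdgfra and Pdgfrb) and Lum was not past the threshold (-0.24), with a median of -1.67 and summed levels of 77.0 to 96.0 and 20.3 to 23.8. Of 7 macrophage markers tested 2 rose (Csf1r and Marco) and 0 fell, and the endothelial marker tested, Tek, fell by 0.71. Of 7 brown fat markers 5 had a probe and 2 were tested. Zic1 rose by 0.93 (adjusted p = 0.0392) and Dio2, at 0.93, was not past the threshold (adjusted p = 0.0564). Ucp1, which defines that cell, was at background on all scans. Of the 4 hepatocyte markers tested, 1 fell (Alb, -1.18 ± 0.10, adjusted p = 0.00307), 1 rose (Serpina1) and 2 (Fgb and Cyp2c11) were not past the threshold, and summed levels were 13.1 to 13.8 on control scans and 22.3 to 26.3 on AP scans. Of 15 acinar markers 8 rose and 0 fell, with a median of 0.68, for example Amy2a3 (2.12-fold, adjusted p = 0.00333) and Cpa1 (0.80 ± 0.13, adjusted p = 0.0129). Their summed level was 87.2 to 89.0 on control scans and 102 to 116 on AP scans. Without scaling 0 acinar markers were called higher, and Cpa1 read -0.15. Cpa1 was not past the threshold without the first control array (adjusted p = 0.0638) or the second (adjusted p = 0.0713), and the count of acinar markers that rose was 3 without the second control array, 5 without the first and 5 without the second AP array. All 7 lymphocyte markers tested rose, with a summed level of 2.03 to 2.67 on control scans and 31.6 to 33.1 on AP scans. The part of fat cells, or of any other cell type, in the fall of the lipogenic genes was not tested, and in whole tissue fewer cells of a type and less RNA per cell cannot be told apart.

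**Figure D4:**
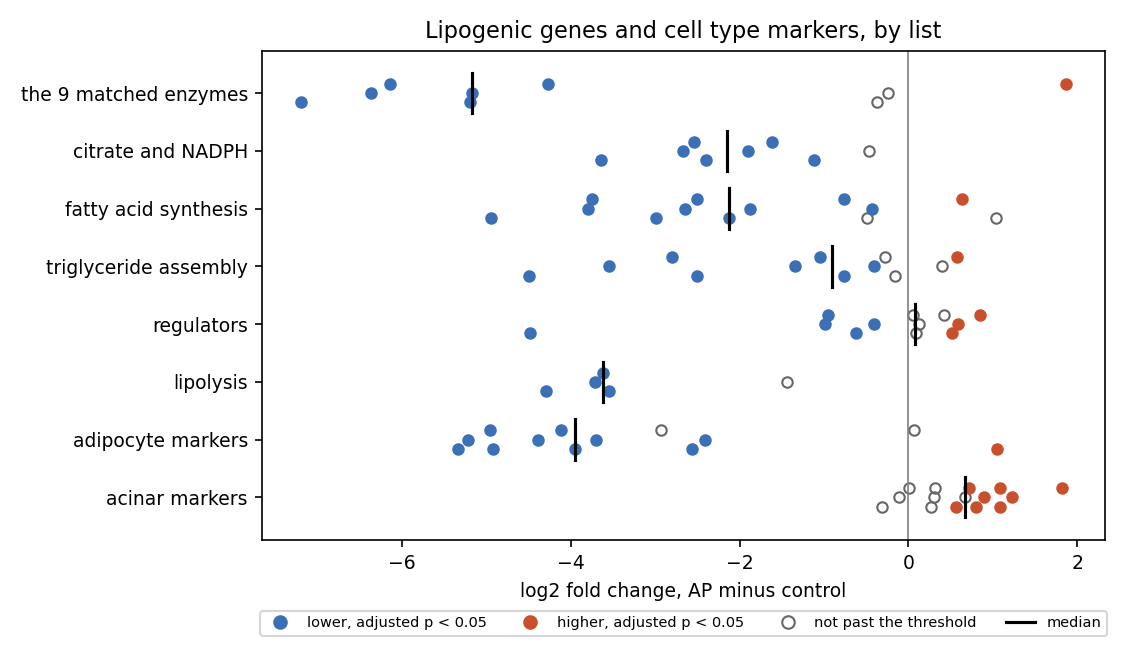
Log2 fold change, AP minus control (horizontal axis), of every tested gene of the set, the 5 pathway lists and the adipocyte and acinar markers (vertical axis), with blue points called lower, red points called higher, open points not past the threshold and a black bar at the median. The medians run from -5.18 for the set through -3.95 for adipocyte markers to 0.07 for regulators and 0.68 for acinar markers.

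The genes most like the set were sought by the distance, over the 4 arrays, between a gene's log2 values centred on their own mean and the mean profile of the genes of the set that were measured on every array, among 8666 other genes. That profile fell by 3.68 from control to AP. It averages the 6 lower genes with Acaca, Agpat2 and Scd2, so no gene of the set has this fall itself. Nearest were Tgm1, a transglutaminase (distance 0.0581), the phosphatase Dusp1 (0.0905, log2 fold change -3.64), Pc (0.0969, -3.64), the peroxiredoxin Prdx5 (0.107, -3.62) and the lactate transporter Slc16a3 (0.109, -3.57). Tgm1 was at background on all AP scans, so its rank rests on values there that were not above background; it was at least 4.33-fold lower, and with normexp read -0.54, not past the threshold (adjusted p = 0.161). The profile holds 4 points, so this order rests on few values.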

How the data were processed

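Per the labels, total RNA was taken from the pancreas of each rat with TRIzol, ribosomal RNA was removed, and random primers were used to amplify the rest, which carried the dye Cy3. Per the file headers, Agilent Feature Extraction 11.0.1.1 read the arrays, whose design was annotated on the assembly rn4; no array coordinates were used. The deposited scanner tables give the intensity of each spot after background subtraction, unscaled between arrays. The deposited normalized table is in log2, and the sources used here do not give how it was made; each of its columns correlated with that scan at 0.987 to 0.999, its medians were 4.27 on all 6 scans, and its centring is unknown.

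Spots of control probes and with outlier marks were left out, each probe's log2 intensity was reduced by the 75th percentile of its scan, and repeated scans were averaged. A probe was tested if at least 3 of the 6 scans had it well above background, 13213 in all, with limma 3.58.1 (R 4.3.3; lmFit and eBayes, 2 residual degrees of freedom, two-sided). The Benjamini-Hochberg adjustment ran over all probes tested, and the threshold was an adjusted p of 0.05. The brightest probe stood for a gene. A gene at background, meaning that no scan of the group had it well above background, has its fold written as a bound against the dimmest probes that were. Some probes at background read higher than that level, so the bound is no strict minimum. The adjusted p of such a gene is that of its fitted change, and the bound itself was not tested. A tested gene at background in 1 group passed the filter through the scans of the other group alone. The fit was also run on simulated data with few changed probes and no floor for dim signals, unlike these data. Nothing is read from that run about the calls here. Where 1 spot was left out (Thrsp), its array kept the other scan.

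The genes and lists were chosen with earlier results of these data known. Named by rule were the 10 genes, the up to 4 largest changes past the threshold in each of the 5 pathway lists, a set of regulators, enzymes and markers whatever their result, the 8 injury genes and the 5 most alike genes. The value of 1 gene that the rule names is not reported here. Genes outside the rule spell out a count of 5 or fewer and were chosen after their values were seen. Python 3.11.15 was used with pandas 2.3.3, numpy 2.4.6 and, for plots, matplotlib 3.10.9. Promoters came from RefSeq (GRCr8).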

Additional observations from a re-analysis of the deposited data

How the results depend on the processing

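With 2 arrays per group, precision rests on 4 arrays, and dim probes limit what can be measured on the AP side. Calls of probes went from 7282 to 2652 with normexp, to 4641 without the second control array, and ran from 4641 to 7299 when arrays or scans were left out. Of the lipogenic set, 6 genes were called lower under all alternatives but no scaling, with 8, and the filter to probes above background on all scans, with 3, which drops Me1, Elovl6 and Thrsp. Thrsp was bright and was dropped only because its spot on control scan 3 was left out. Scd2 was the 1 gene called higher under all 19. The set's median of -5.18 became -6.13 without scaling, -3.52 with normexp and -4.27 with that filter, and ran from -5.22 to -4.80 when arrays or scans were left out. In the 5 pathway lists, 39 changed genes became 24 with normexp and ran from 28 to 39 when arrays or scans were left out; the 5 that rose became 0 without scaling, 0 with normexp and 1 with the replicate block, and ran from 1 to 5. Adipocyte and acinar markers changed, 19, became 11 with normexp and ran from 11 to 19. Among genes past the threshold, signs turned without scaling for Cpa1 (-0.15), Thra (-0.11), Hacd4 (-0.32), Fitm1 (-0.39), Mbtps1 (-0.37) and Nr1h2 (-0.44), by the scaling shift itself, and with normexp for Gpat3 (0.035) and Prkaa1 (0.23), for which the cause was not tested. Of 1084 values of 58 named genes outside the set, 1016 kept their call or their lack of one, 39 lost the call, 21 gained one and 8 turned sign after being past the threshold. Genes not past it turned sign in 27 values of 10 genes, 3 of them then past it (Srebf2, Mlx and Lep, all without scaling). The labels share replicate numbers between groups but name no common animal or day. Deviations of same-numbered arrays correlated at -0.21. With 2 arrays per group this is a single contrast, so it cannot show whether the numbers pair the samples. No pairing was taken, since the labels give none. With the replicate block 5518 probes passed, and 6 genes of the set were lower, 1 higher and 32 of the pathway lists changed. The array slide could not be a block, since all arrays were on 1 slide. Keeping the first scan session alone, chosen after seeing the data, moved no count by over 1.5 times.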
